A study of Homo sapiens with 11 samples.

Results

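The members described here are the nuclear genes for subunits of respiratory complexes I to IV and of ATP synthase, which is called complex V. They were taken from the 57773 genes of the expression table as protein-coding genes with the name pattern of these subunits, such as NDUFA with a number or ATP5 with a letter, whose mean over 9 libraries was 1 FPKM or more. FPKM is the number of sequenced fragments scaled to the length of the transcript and to the size of the library. Of 93 rows whose names matched, 83 reached that level and are the members: 40 in complex I, 4 in complex II, 9 in complex III, 12 in complex IV and 18 in complex V. They carry 81 distinct names, because UQCR11 and NDUFB8 are each listed on 2 rows. The names let in a few genes that are no subunits of the complexes, among them the readthrough genes ATP5J2-PTCD1 and NDUFC2-KCTD14, the processed gene copy COX6A1P2, ATP5SL and ATP5S. The level of the genes chose them, so levels are given below as a description.

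RNA was sequenced from HCC78, a lung adenocarcinoma line that itself has an SLC34A2-ROS1 fusion and is mutated to S34F in U2AF1. U2AF1 is the splicing factor subunit that reads the end of the intron at the 3′ splice site, and the study compared its wild-type (WT) and S34F forms in cells with that fusion. The cells were the parental line without a construct (2 libraries), stable subclones with a doxycycline-inducible FLAG-HA tagged WT U2AF1, without (WT dox-, 2 libraries) and with doxycycline (WT dox+, 2 libraries), and stable subclones with the same construct for S34F, without (S34F dox-, 1 library, labelled replicate 2) and with doxycycline (S34F dox+, 2 libraries). The labels put the parental libraries without doxycycline, whereas a supplementary sheet of the study heads the same samples as doxycycline treated, and this was not settled here. No doxycycline-treated line without an induced construct is labelled, so doxycycline and induction of U2AF1 cannot be told apart, and subclone and construct cannot be told apart either. How many subclones were used, and the dose and time of doxycycline for these libraries, are not given in the sources used here.

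The respiratory chain is built from subunits of both genomes. Complex I takes electrons from NADH and complex II from succinate, complex III passes them from ubiquinol to cytochrome c, and complex IV passes them to oxygen. Complexes I, III and IV pump protons across the inner mitochondrial membrane, and ATP synthase uses the returning protons to make ATP. The catalytic centre of complex IV, the ubiquinone end of complex I, cytochrome b and parts of the ATP synthase proton channel are encoded in mitochondrial DNA, and the nuclear genes described here give the other subunits, which are imported. Doxycycline is a tetracycline, a class of antibiotics known to act on bacterial and mitochondrial ribosomes.

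U2AF1 itself was 103 to 115 FPKM in the 5 parental and dox- libraries, 278 and 299 FPKM after induction of WT U2AF1 and 164 and 223 FPKM after induction of S34F, so all 4 induced libraries were above all uninduced ones. By the labels, S34F made up 28% to 33% of U2AF1 mRNA in the uninduced libraries, 62% and 65% after induction of S34F and 12% and 14% after induction of WT. Epithelial markers were high in every library, with KRT8 at a mean of 1944 FPKM, KRT19 at 1986 FPKM, EPCAM at 503 FPKM and the lung factor NKX2-1 at 55.8 FPKM, whereas the surfactant gene SFTPB was at 0.93 FPKM. The libraries were not equally deep: relative depth, estimated from the steps between the lowest values, ranged from 0.607 to 1.25, with S34F dox+ at 0.697 and 0.607. From 13661 to 20896 genes were at 1 FPKM or more per library, with S34F dox+ replicate 2 the highest. The labels do not say that replicates were separate cultures, so every p-value below measures only the spread between these libraries. In bulk RNA, fewer cells of a kind and less RNA per cell cannot be told apart.

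The promoters of 4 members are shown because these genes had, in their complex, the lowest doxycycline difference among members whose libraries did not overlap (described below). The first, SDHB, passed the test and the others did not. Each is the 250 bases before the RefSeq start, read on the strand of the gene in GRCh38.p14, at chr1:17054033-17054282 (minus strand) for SDHB in complex II, chr5:1801157-1801406 (plus) for NDUFS6 in complex I, chr19:29213152-29213401 (minus) for UQCRFS1 in complex III and chr15:74938074-74938323 (minus) for COX5A in complex IV. ATP5D, the gene of complex V chosen by the same rule, has no entry in the promoter table. Capitals mark the letters of 4 motifs on either strand.
SDHB: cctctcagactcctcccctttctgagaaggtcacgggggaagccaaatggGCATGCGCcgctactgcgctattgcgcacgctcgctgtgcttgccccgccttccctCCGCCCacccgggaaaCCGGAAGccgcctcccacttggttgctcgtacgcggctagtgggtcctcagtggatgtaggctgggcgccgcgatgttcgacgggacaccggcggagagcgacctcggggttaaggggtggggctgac
NDUFS6: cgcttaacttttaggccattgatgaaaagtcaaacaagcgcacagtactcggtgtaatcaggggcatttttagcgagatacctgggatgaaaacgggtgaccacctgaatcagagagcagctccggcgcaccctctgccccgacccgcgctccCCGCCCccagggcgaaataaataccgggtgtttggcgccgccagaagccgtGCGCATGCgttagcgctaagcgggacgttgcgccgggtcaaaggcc
UQCRFS1: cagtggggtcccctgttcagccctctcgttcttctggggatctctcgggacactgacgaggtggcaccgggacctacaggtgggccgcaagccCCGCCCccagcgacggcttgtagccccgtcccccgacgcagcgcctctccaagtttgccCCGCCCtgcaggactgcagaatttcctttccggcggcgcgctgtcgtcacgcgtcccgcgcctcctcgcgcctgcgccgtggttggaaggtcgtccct
COX5A: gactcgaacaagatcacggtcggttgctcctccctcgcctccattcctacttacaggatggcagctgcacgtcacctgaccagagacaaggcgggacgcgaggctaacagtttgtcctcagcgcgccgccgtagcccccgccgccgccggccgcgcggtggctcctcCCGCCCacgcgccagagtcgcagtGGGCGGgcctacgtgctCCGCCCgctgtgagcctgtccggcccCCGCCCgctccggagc
The motifs searched were the half-site GCATGCGC of NRF1, CCGGAAG of the ETS family to which GABPA belongs, AAGATGGC of YY1 and GGGCGG of SP1, all factors linked to genes of the respiratory chain. The SDHB stretch held the NRF1 half-site from base -200, the SP1 letters from -144 and the ETS letters from -128, counted from the start. The NDUFS6 stretch held the SP1 letters from -97 and the NRF1 half-site from -46, UQCRFS1 held the SP1 letters at 2 places, and COX5A held them at 4. Over the 64 members with a promoter in the table, in windows of 300 bases, the NRF1 half-site was in 13 (20.3%), against 5.66% of the promoters of 9643 tested protein-coding genes and 3.05% of all 35116 promoters. The YY1 letters were in 11 (17.2%) against 5.69% and 2.89%, and the ETS letters in 19 (29.7%) against 20.4% and 10.3%. The SP1 letters went the other way against tested genes, with 39 members (60.9%) against 70.6%, and 44.95% of all promoters. A match is a run of letters and not a bound site, and 14 members held none of the 4.

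The members were among the more abundant mRNAs of these cells. Their median level was 74.3 FPKM, against 14.9 FPKM for the 11993 protein-coding genes that were tested, and 56 of 83 (67.5%) were at 50 FPKM or more, against 17.9%. By complex the median was 58.5 FPKM in complex I, 58.7 FPKM in complex II, 98.0 FPKM in complex III, 120 FPKM in complex IV and 126 FPKM in complex V. The top of each complex was NDUFS5 (312 FPKM, an accessory subunit), SDHA (113 FPKM, the flavoprotein of succinate dehydrogenase), UQCRQ (227 FPKM), COX7C (673 FPKM) and ATP5B (317 FPKM, the catalytic beta subunit). With complexes set by gene name, the lowest rows were NDUFA4L2 (1.68 FPKM), SDHC (31.6 FPKM), COX6A1P2 (35.1 FPKM) and ATP5J2-PTCD1 (1.58 FPKM). In complex III the lowest was the less abundant row of UQCR11 (24.2 FPKM). The other row of UQCR11 was at 52.5 FPKM. Reads can be split between rows of a gene by the estimation, so the low row is uncertain.

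Within a complex, levels differed between some roles and overlapped between others. The 7 core subunits of complex I, which hold the flavin and iron-sulfur clusters, had a median of 62.5 FPKM. They ranged from 38.6 to 116 FPKM. That median was close to the 56.3 FPKM of the 32 rows counted here as accessory, which reached from 1.68 to 312 FPKM. Those rows include NDUFA4L2 (1.68 FPKM), the second row of NDUFB8 (2.16 FPKM) and NDUFA4, which is now counted with complex IV. In complex II the catalytic pair SDHA and SDHB (113 and 70.6 FPKM) lay above the membrane anchors SDHC and SDHD (31.6 and 46.8 FPKM). In complex III the core proteins UQCRC1 and UQCRC2 were at 98.0 and 182 FPKM, and UQCRFS1, the Rieske iron-sulfur protein, was at 39.4 FPKM. In complex V the 5 subunits of the F1 head ranged from 47.0 FPKM (ATP5E) to 317 FPKM, the 4 of the peripheral stalk from 94.6 to 252 FPKM, and the 3 genes ATP5G1, ATP5G2 and ATP5G3, which code for the c subunit of the rotor ring, lay together between 66.2 and 75.8 FPKM.

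**Figure D1:**
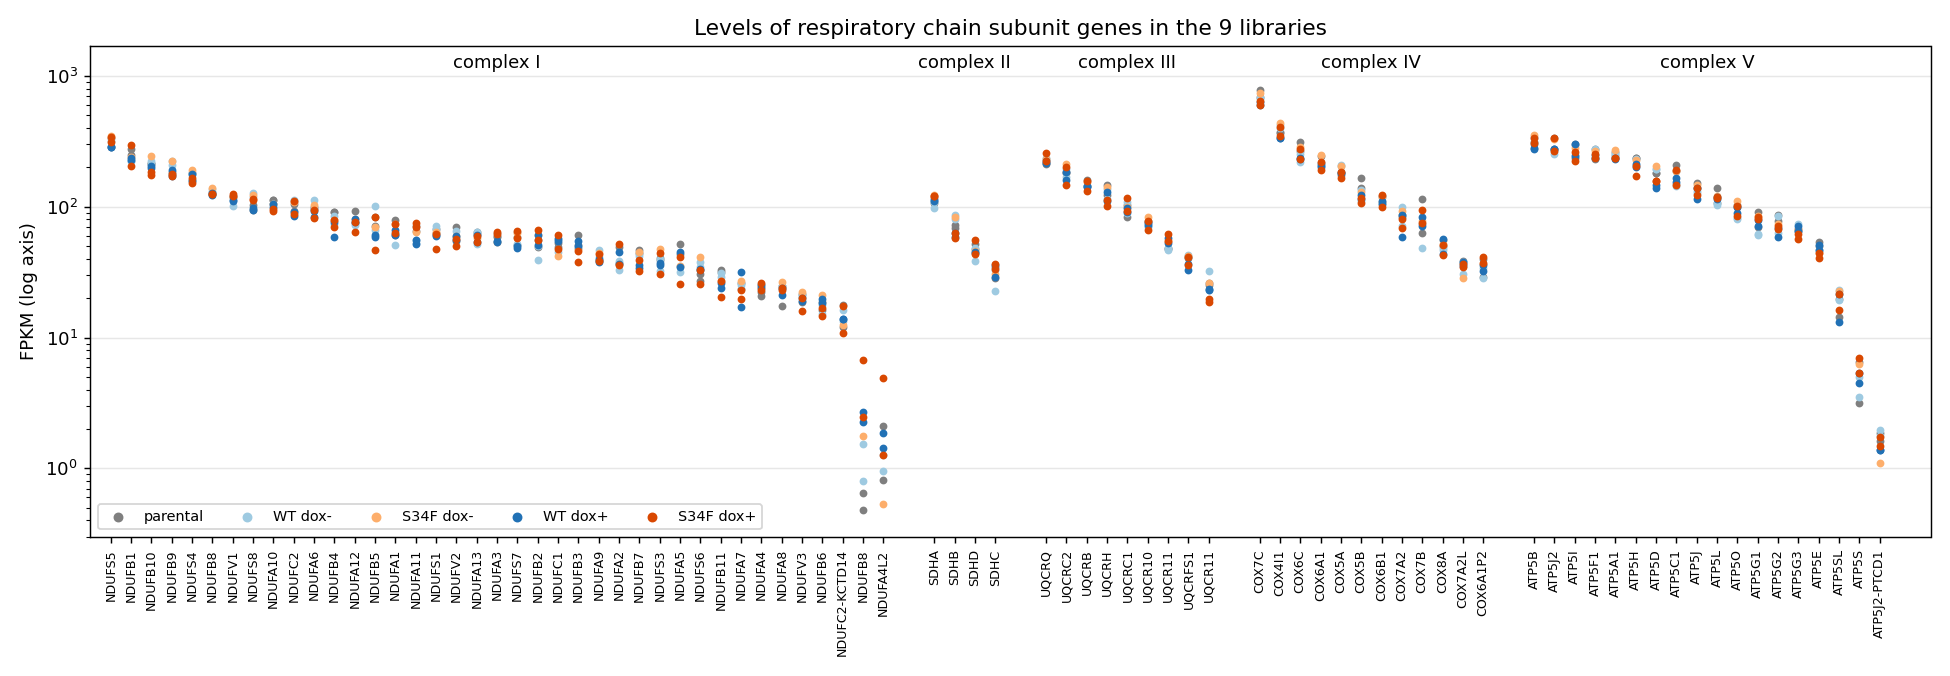
FPKM (log axis) of 82 of the 83 member rows in the 9 libraries, 1 point per library coloured by group, with genes ordered by mean within complexes I to V. Points of most genes lie close together, with the widest spread in the low rows NDUFA4L2 and the second NDUFB8 row. COX7C stands highest with a mean of 673 FPKM.

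Subunits with a tissue- or condition-specific isoform were present in their common form. COX4I1 had a mean of 380 FPKM, whereas COX4I2, the form known from lung and low oxygen, was listed at 0 in all 9 libraries. COX6A1 (217 FPKM) stood against COX6A2 (0.191 FPKM, known from heart and muscle), COX7A2 (80.9 FPKM) against COX7A1 (0.314 FPKM, likewise a muscle form), and COX6B1 (112 FPKM) against COX6B2 (0.466 FPKM, a testis form). COX7B (78.0 FPKM) stood against COX7B2 (0.0511 FPKM), COX8A (49.6 FPKM) against COX8C (0.0267 FPKM), and NDUFA4 (24.1 FPKM), now counted with complex IV, against NDUFA4L2 (1.68 FPKM). In all 7 pairs the common form was the higher. Of the alternative forms NDUFA4L2 alone reached the minimum and is a member. Around that minimum, the members just inside were ATP5J2-PTCD1 (1.58 FPKM), NDUFA4L2 and the second row of NDUFB8 (2.16 FPKM), and the names just outside were COX6B2, ATP5EP2 (0.409 FPKM) and ATP5L2 (0.373 FPKM). The other names below it were COX7A1, COX6A2, COX7B2, COX8C, COX4I2 and second rows of NDUFA7 and SDHD.

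The levels moved little over the 9 libraries. The highest library was within 2-fold of the lowest for 77 of 83 members (92.8%), against 67.5% of tested protein-coding genes, with a median ratio of 1.39 against 1.69. The coefficient of variation had a median of 10.9% in members and 17.2% in tested protein-coding genes, and the part that the higher level of the members has in this gap was not tested. COX7B was one of the exceptions among abundant members, between 48.8 FPKM in WT dox- replicate 1 and 115 FPKM in parental replicate 1, a ratio of 2.36. Replicates of one group differed in the median member by 0.139 on the log2 scale in parental, 0.129 in WT dox-, 0.0899 in WT dox+ and 0.202 in S34F dox+, where replicate 2 was lower than replicate 1 by a median of 0.158 (log2 ratio -0.158).

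Together the members made up 1.499% and 1.44% of the summed FPKM of protein-coding genes in parental, 1.41% and 1.43% in WT dox-, 1.52% in S34F dox-, 1.40% and 1.43% after induction of WT, and 1.52% and 1.40% after induction of S34F. The values of the induced groups overlapped, and the S34F dox+ replicates were nearly as far apart as any of the 9 libraries. Complex I gave 0.474% to 0.514%, complex V 0.390% to 0.437%, complex IV 0.333% to 0.379%, complex III 0.145% to 0.166% and complex II 0.0390% to 0.0452%. With 2 libraries against 2, an exact two-sided permutation test cannot go below p = 0.333, so no test of these sums was made. The mRNAs of the 13 subunits encoded in mitochondrial DNA summed to between 35878 and 58302 FPKM per library, and the 83 members summed to between 8394 and 9878 FPKM.

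**Figure D2:**
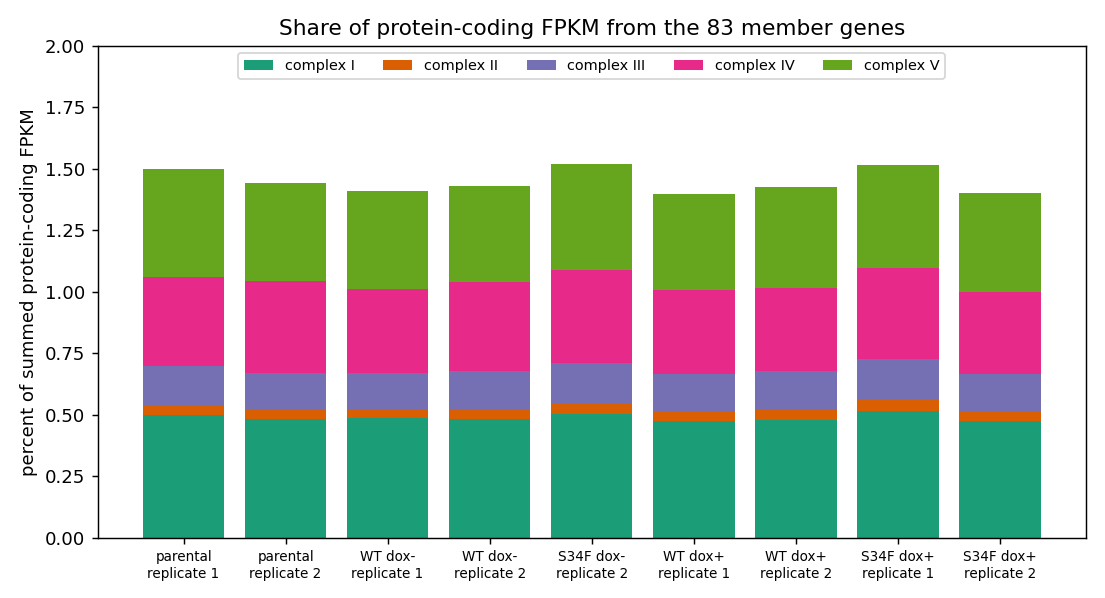
Percent of the summed FPKM of protein-coding genes that comes from the 83 members in each of the 9 libraries, as bars from 0 stacked by complex I to V. The bars lie between 1.40% and 1.52%, and those of S34F dox+ replicates 1 and 2 are 1.52% and 1.40%.

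The main comparison of the study asked what the S34F form does against the WT form when both are induced. Of the 83 members none was called between S34F dox+ and WT dox+ at an adjusted p under 0.05 (limma on log2(FPKM + 1), Benjamini-Hochberg over 15179 genes), where 0.0527% of all genes tested were called in either direction. At an unadjusted p under 0.05 1 member was higher and 1 was lower, with 4.01% and 2.77% of all genes. The median difference of the members was 0.03 on the log2 scale, the same as that of all genes tested (0.03), and 52 members were above 0 and 31 below. Libraries did not overlap for 16 members that were higher in S34F dox+ (19.3%, against 20.5% of all genes) and for 7 that were lower (8.43%, against 15.3%). No member differed by 1.5-fold or more on this scale, as 9.45% of all genes did. The 95% interval of the difference reached a median of 0.316 to either side, and for 81 of the 83 members it lay within a 2-fold change.

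The member with the smallest unadjusted p was NDUFA11, an accessory subunit in the membrane arm of complex I. It was 52.0 and 56.1 FPKM in WT dox+, 70.1 and 75.1 FPKM in S34F dox+, 53.2 and 55.6 FPKM in WT dox-, 64.2 FPKM in S34F dox- and 65.5 and 71.8 FPKM in parental. Both S34F dox+ libraries were thus above both WT dox+ libraries, and the uninduced S34F library and the parental line also lay above both libraries of the uninduced WT line. The S34F dox+ against WT dox+ difference was 0.42 ± 0.11 (log2, SE, n = 2 and 2, 95% interval 0.17 to 0.67, adjusted p = 0.531 by limma). The member lowest against WT dox+ was NDUFB3, a small membrane subunit of complex I, at 45.6 and 38.2 FPKM in S34F dox+ and 50.4 and 55.0 FPKM in WT dox+, a difference of -0.33 ± 0.14 (adjusted p = 0.728).

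Among the 7 core subunits of complex I the median difference was 0.13. Libraries did not overlap for 4 of the 7 that were higher in S34F dox+ (20.5% of all genes) and for 0 that were lower (15.3%). The 4 included NDUFS7 and NDUFS8, which carry the last iron-sulfur clusters before ubiquinone. NDUFS7 was 57.2 and 65.6 FPKM in S34F dox+ and 48.4 and 49.8 FPKM in WT dox+ (difference 0.31, adjusted p = 0.741). It had been 52.3 and 64.2 FPKM in WT dox- and 63.2 FPKM in S34F dox-. NDUFS8 was 114 and 113 FPKM in S34F dox+ and 94.7 and 98.3 FPKM in WT dox+ (difference 0.23), and it had been 128 and 118 FPKM in WT dox- and 123 FPKM in S34F dox-. In WT dox+ against WT dox- the same 7 core subunits had a median of -0.19. There 4 were lower without overlap (20.8% of all genes) and 0 higher (28.9%). Both comparisons share the WT dox+ libraries, so these values are not separate evidence. In complex V, ATP5B was 336 and 307 FPKM in S34F dox+ against 277 and 281 FPKM in WT dox+ (difference 0.20). It had been 338 and 340 FPKM in WT dox- and 355 FPKM in S34F dox-. The medians were 0.01 in complex I, 0.12 in complex II, 0.03 in complex III, 0.03 in complex IV and 0.05 in complex V. The median over the 83 members turned on single libraries and on the scaling. It was -0.05 without S34F dox+ replicate 1, with all genes at 0.05, and 0.09 without replicate 2, with all genes at 0.0017. With TPM in place of FPKM the median of all genes moved by -0.10 and that of the members to -0.08.

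Adding doxycycline to the WT line gave no called member either (0 of 83, against 0.0132% of all genes in either direction). At an unadjusted p under 0.05, 8 members were lower (9.64%, against 5.59% of all genes) and 0 were higher (8.80% of all genes). The median member difference, WT dox+ minus WT dox-, was -0.06, with all genes at 0.05, and ranged from -0.08 to -0.01 over omissions of 1 library. Tested protein-coding genes had a median of 0.01. With a minimum of 5 FPKM the medians were -0.06 for the members and -0.01 for all genes. The 8 members became 4 without WT dox+ replicate 1 and 12 without S34F dox+ replicate 2. Both WT dox+ libraries were below both WT dox- libraries for 26 members (31.3%, against 20.8% of all genes) and above them for 14 (16.9%, against 28.9%). The 8 members were ATP5D (-0.45, adjusted p = 0.141), SDHB (-0.44), NDUFS8 (-0.35), NDUFC2 (-0.33), UQCRFS1 (-0.29), ATP5B (-0.28), COX4I1 (-0.27) and NDUFB9 (-0.24), from all 5 complexes. Under quantile normalization the median of the members was 0.01.

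SDHB and ATP5D fell with doxycycline when the differences of both transduced lines were averaged. SDHB is the iron-sulfur subunit of complex II that hands electrons on to ubiquinone. It was 86.2 and 80.5 FPKM in WT dox- and 84.0 FPKM in S34F dox-, and 59.1 and 63.1 FPKM in WT dox+ and 62.7 and 58.0 FPKM in S34F dox+. All 4 dox+ libraries were below the 3 dox- libraries of the transduced lines, and the 2 parental libraries were in between, at 72.1 and 69.3 FPKM. The mean difference was -0.46 ± 0.08 (log2, SE, 95% interval -0.65 to -0.27), a ratio of 0.729, with an adjusted p = 0.0375 by limma.

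ATP5D codes for the delta subunit, in the central stalk of F1 that turns with the rotor. It was 193 and 196 FPKM in WT dox- and 205 FPKM in S34F dox-, and 146 and 139 FPKM in WT dox+ and 158 and 158 FPKM in S34F dox+, with 183 and 180 FPKM in parental. The dox+ libraries were again the 4 lowest of the 9. The mean difference was -0.41 ± 0.07 (95% interval -0.57 to -0.25), a ratio of 0.752, with an adjusted p = 0.0318 by limma. Both calls were close to the threshold: leaving out any single library ended both calls in 7 of 8 fits, with adjusted p up to 0.137, and only without S34F dox+ replicate 1 were both still called. Both calls also ended with no minimum level, under quantile normalization and without the parental libraries. Without WT dox+ replicate 2 and S34F dox+ replicate 2, the libraries with the most genes at 1 FPKM or more, the differences were -0.45 and -0.39 and both adjusted p were 0.199. Both genes had a difference below 0 under all 19 alternatives.

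**Figure D3:**
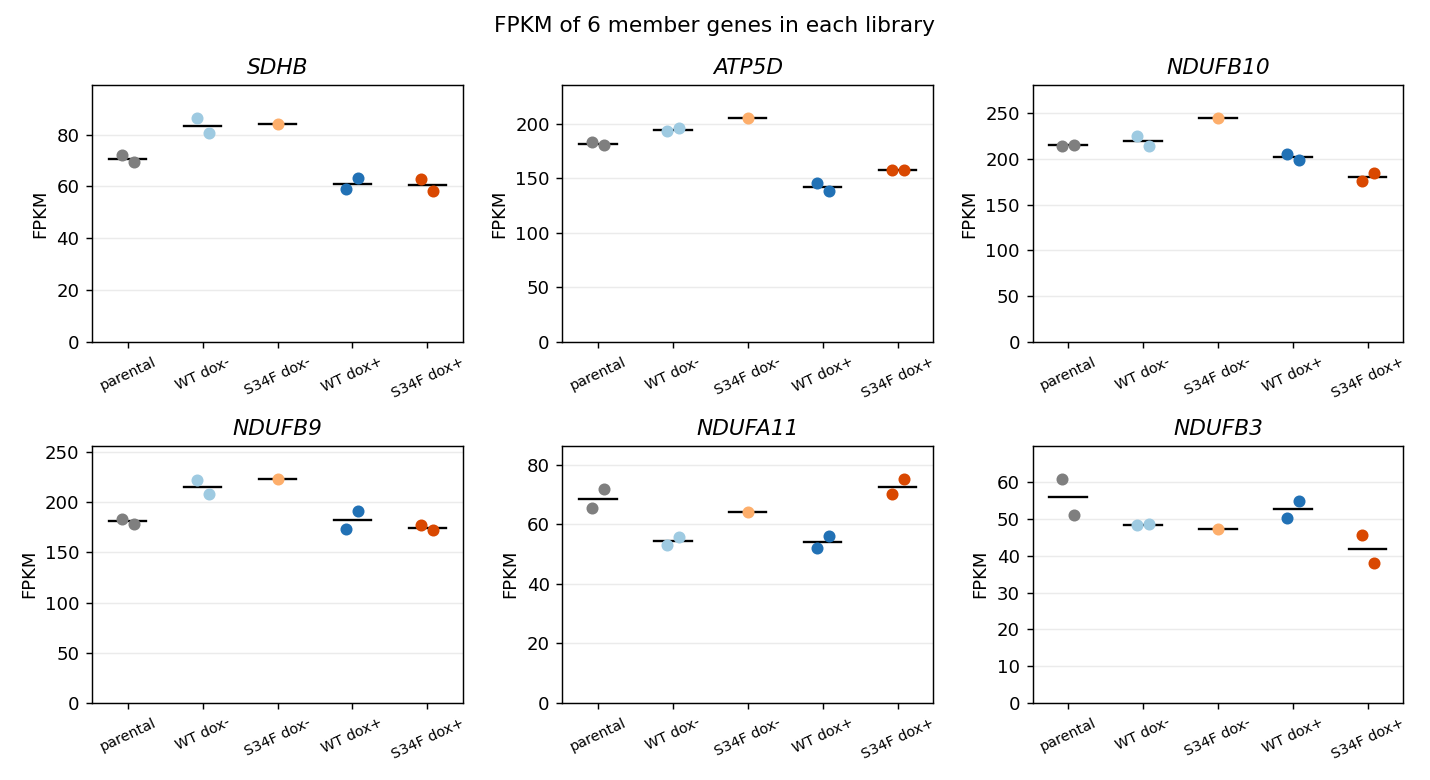
FPKM of 6 members in the 9 libraries, 1 panel per gene with an axis from 0, points for single libraries and a bar at the group mean. SDHB and ATP5D are lower in the 4 dox+ libraries than in the 3 dox- libraries, and NDUFA11 is higher in S34F dox+ (70.1 and 75.1 FPKM) than in WT dox+ (52.0 and 56.1 FPKM).

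Of all genes tested in the mean doxycycline difference, 2.79% were called higher and 1.09% lower (424 and 165 genes). These counts rest on all libraries together: they were 14 and 4 without WT dox+ replicate 1, 6 and 4 without WT dox+ replicate 2, 24 and 13 without WT dox- replicate 1, 52 and 14 without S34F dox+ replicate 2, and 106 to 112 and 26 without either or both parental libraries. Of the members, 2 (2.41%) were called lower and 0 higher. At an unadjusted p under 0.05 there were 13 members lower (15.7%, against 9.22% of all genes; 8 without WT dox+ replicate 1 and 22 without S34F dox+ replicate 1) and 1 higher (against 15.9%). The 4 dox+ libraries lay below the 3 dox- libraries without overlap for 16 members (19.3%, against 9.76% of all genes) and above them for 1 (against 15.2%). The median of the members was -0.10 and that of all genes 0.08. Below 0 were 59 of 83 members (71.1%), against 41.3% of all genes and 46.5% of tested protein-coding genes. The gap was smaller against genes more like the members. Tested protein-coding genes had a median of 0.03. With a minimum of 5 FPKM the medians were -0.10 for the members and -0.01 for all genes. By complex the median was -0.12 in complex I, 0.06 in complex II, -0.07 in complex III, -0.11 in complex IV and -0.10 in complex V. In complex II the members therefore parted, with SDHB low and the 3 other members above 0. The shift between members and all genes was absent under quantile normalization, where the medians were -0.03 and -0.04. The summed FPKM of all protein-coding genes was also lower, at 599594 to 613384 in the dox+ libraries and 636174 to 649552 in the dox- and parental libraries. The share of that sum from the members overlapped, at 1.40% to 1.52% in dox+ and 1.41% to 1.52% in dox-. The part of the lower sum in the shift of the members was not tested.

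NDUFB10, NDUFB9, NDUFB7 and NDUFS6, accessory subunits of complex I, were also lower with doxycycline without passing the test. Of the 40 members of complex I, 28 were below 0 in the mean doxycycline difference and 12 above. The less abundant row of UQCR11 in complex III, at -0.33, was below every complex I member, but its dox+ and dox- libraries overlapped. NDUFB10 was 225, 213 and 244 FPKM in the dox- libraries (WT replicates 1 and 2, then S34F) and 205, 198, 176 and 185 FPKM in dox+ (WT replicates 1 and 2, then S34F replicates 1 and 2), with no overlap and a difference of -0.28 (adjusted p = 0.0721). NDUFB9 was 223, 208 and 223 FPKM against 173, 191, 177 and 172 FPKM in the same order, a difference of -0.30 (adjusted p = 0.0733). The parental libraries of NDUFB9, at 183 and 179 FPKM, lay inside the range of dox+ libraries, whereas those of NDUFB10, at 214 and 215 FPKM, lay inside that of dox-. NDUFB7 was 43.3, 42.3 and 44.97 FPKM against 34.3, 35.7, 39.3 and 32.5 FPKM (difference -0.30, adjusted p = 0.117). NDUFS6, an accessory subunit with a bound zinc, was 38.1, 34.8 and 41.0 FPKM against 33.2, 32.6, 32.9 and 25.8 FPKM (difference -0.31, adjusted p = 0.149). S34F dox+ replicate 2 was its lowest library. The parental libraries of NDUFS6, at 30.4 and 27.1 FPKM, lay inside the range of dox+ libraries. Those of NDUFB7 were at 44.2 and 46.7 FPKM.

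In complex III, UQCRFS1 was 42.6, 42.1 and 42.3 FPKM in the dox- libraries and 32.9, 36.2, 41.1 and 36.1 FPKM in dox+, a difference of -0.21 (adjusted p = 0.203). Its parental libraries, at 41.1 and 40.5 FPKM, lay within the range of dox+ libraries. In complex IV the 2 members with the lowest difference among those without overlap were COX5A and COX7C. COX5A was 205, 209 and 205 FPKM without and 182, 180, 183 and 166 FPKM with doxycycline (difference -0.21, adjusted p = 0.140), so the 3 dox- libraries lay within 4 FPKM of each other. COX7C, the most abundant member, was 680, 685 and 745 FPKM without and 602, 629, 645 and 596 FPKM with doxycycline (difference -0.21, adjusted p = 0.158). The parental libraries were at 175 and 186 FPKM for COX5A and at 697 and 782 FPKM for COX7C. In complex V, ATP5B and ATP5A1, which form the hexamer of F1, had differences of -0.21 and -0.16 (adjusted p = 0.131 and 0.197). The parental libraries of ATP5B, at 315 and 300 FPKM, lay inside its dox+ range of 277 to 336 FPKM. Those of ATP5A1, at 244 and 263 FPKM, lay above its dox+ range of 232 to 237 FPKM.

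The member above 0 without overlap was the second row of NDUFB8, at 0.480 and 0.650 FPKM in parental, 0.800 and 1.53 FPKM in WT dox-, 1.78 FPKM in S34F dox-, 2.26 and 2.69 FPKM in WT dox+ and 2.46 and 6.79 FPKM in S34F dox+. Its difference was 0.80 ± 0.33 (adjusted p = 0.186), and S34F dox+ replicate 2 gave the highest value. The main row of the same gene, at 124, 136 and 140 FPKM without and 124, 127, 126 and 126 FPKM with doxycycline, had a difference of -0.10. Reads can be split between the 2 rows by the estimation, so the low row is uncertain. Of the 2 other members just above the minimum, NDUFA4L2 was also highest in S34F dox+ replicate 2 (4.93 FPKM, against 0.530 to 2.09 FPKM elsewhere), whereas ATP5J2-PTCD1 was highest in WT dox- replicate 2 (1.95 FPKM) and was 1.49 FPKM in S34F dox+ replicate 2.

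**Figure D4:**
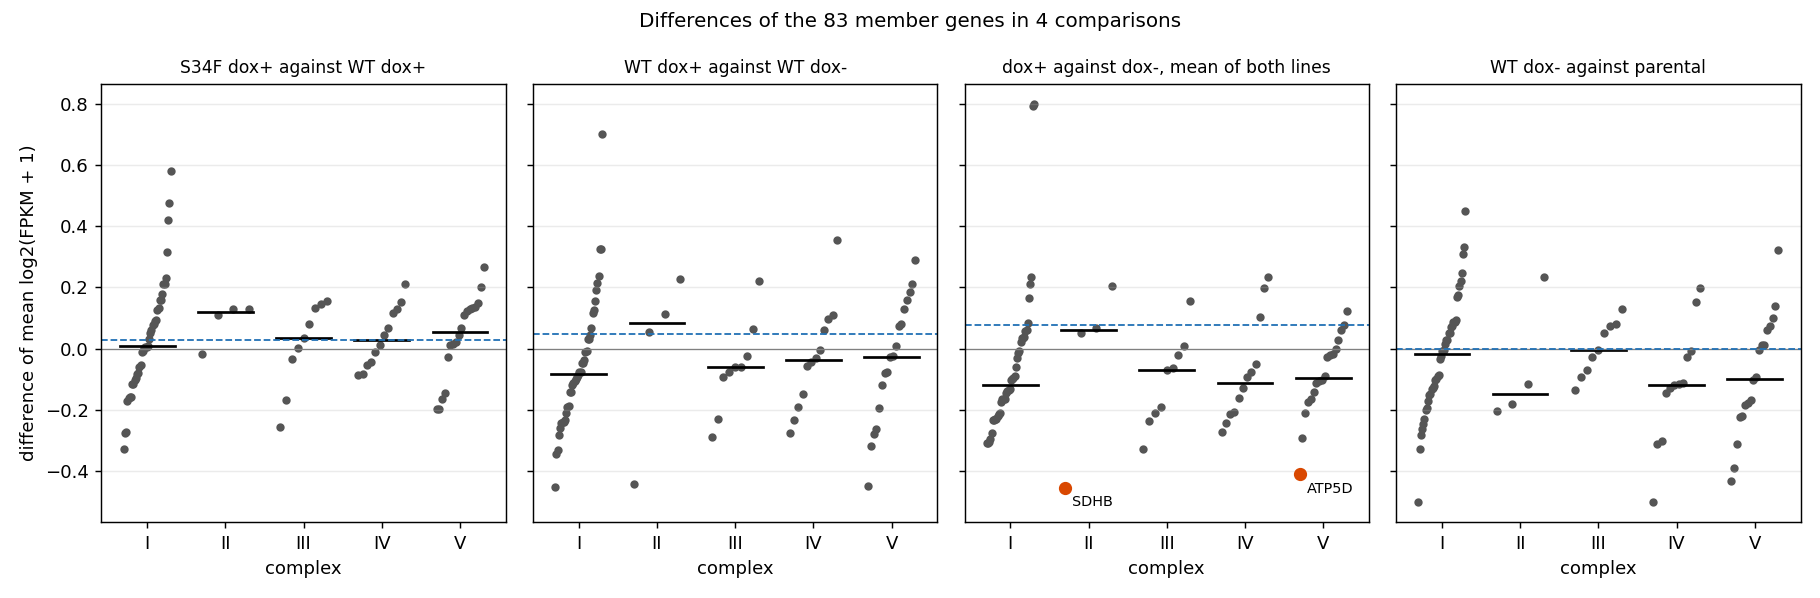
Difference of mean log2(FPKM + 1) for the 83 members in 4 comparisons, 1 point per member sorted within complex I to V, with a black bar at the median of the complex, a dashed line at the median of all genes tested and called members in red. The medians lie near 0 in S34F dox+ against WT dox+, and SDHB (-0.46) and ATP5D (-0.41) are called in the mean doxycycline difference.

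Some sums over other genes were mostly higher in the dox+ libraries, though their ranges overlapped with those of other libraries. The summed FPKM of 134 named pseudogene copies of 39 members was 86.6 to 130 FPKM in the dox+ libraries and 49.8 to 88.1 FPKM in the others. The 2 copies of NDUFB8 are counted in this sum for each of its 2 rows. The copies of SDHA, at 31.9% of their parent gene on average, were 36.4 to 51.7 FPKM in dox+ and 25.2 to 27.7 FPKM in the dox- libraries, with 30.8 and 36.6 FPKM in parental. Copies reached 10% of the parent for 3 of the 39 members, so levels of these are uncertain. Markers of leukocytes, endothelium and fibroblasts summed to 7.49 to 17.3 FPKM in dox+ and 4.03 to 7.97 FPKM in the others, with 8 of 9 listed and 3 tested, and PTPRC (mean 1.10 FPKM), COL1A1 (4.29 FPKM) and DCN (1.22 FPKM) were the ones above the minimum. The epithelial marker list summed to 5032 to 7377 FPKM. The number of genes at 1 FPKM or more had a mean of 16885 in WT dox+ and 18316 in S34F dox+, against 13661 to 14611 in the other groups. Their part in the doxycycline differences was not tested.

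Whether the lines responded differently to doxycycline was tested as the S34F response minus the WT response, with 1 S34F dox- library. No member was called (0 of 83, against 0.0264% of all genes in either direction), and at an unadjusted p under 0.05 there were 0 members higher and 2 lower, with 2.21% and 1.21% of all genes. These were NDUFB6 and ATP5O. NDUFB6, a complex I accessory subunit, was 15.1 and 17.7 FPKM in WT dox-, 18.5 and 19.7 FPKM in WT dox+, 21.3 FPKM in S34F dox- and 14.6 and 16.7 FPKM in S34F dox+, a difference of responses of -0.63 ± 0.23 (adjusted p = 1.0 by limma). ATP5O, the peripheral stalk subunit that contacts F1, was 82.4 and 80.5 FPKM in WT dox-, 89.3 and 100 FPKM in WT dox+, 110 FPKM in S34F dox- and 101 and 85.0 FPKM in S34F dox+, a difference of -0.46 ± 0.19 (adjusted p = 1.0). The WT line went up and the S34F line down in both, and both rest on the single S34F dox- library, which was the highest of the transduced libraries for each. Of the 83 members, 46 were lower with doxycycline in both lines, 13 higher in both and 24 opposite. The same counts were not made over all genes tested. The median of the members was -0.06 in the WT line and -0.15 in the S34F line. The interval of the difference of responses had a median reach of 0.500 to either side, so this contrast is the least precise.

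Transduction without doxycycline was compared as WT dox- minus parental. No member was called (0 of 83, against 0.0988% of all genes in either direction), and at an unadjusted p under 0.05 there were 2 members higher (2.41%, against 5.79% of all genes) and 5 lower (6.02%, against 6.54%). The 2 were NDUFS8 (0.31) and NDUFB9 (0.25), and the 5 were ATP5C1 (-0.43, the gamma subunit of F1), ATP5G1 (-0.39), NDUFA11 (-0.33), ATP5O (-0.31) and COX5B (-0.31). ATP5C1 was 208 and 187 FPKM in parental, 149 and 143 FPKM in WT dox-, and 189 FPKM in S34F dox- (adjusted p = 0.281). For 14 members WT dox- lay above parental without overlap (16.9%, against 21.6% of all genes) and for 23 below (27.7%, against 22.4%). This comparison shares the WT dox- libraries with the doxycycline comparisons and the sign of a shared library is turned between them, so the values of NDUFS8 and NDUFB9 in both are not separate evidence.

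Other genes of the pathway, from lists written with the subunits, gave few calls. In the mean doxycycline difference, where 1.09% of all genes were called lower, 2 of 8 subunits and carriers outside the name rule fell, CYCS and CYC1. CYCS is cytochrome c, the carrier between complexes III and IV, and was 201, 161 and 188 FPKM in the dox- libraries and 95.7, 105, 72.8 and 116 FPKM in dox+ (difference -0.93 ± 0.17, adjusted p = 0.0395). The parental libraries, at 100 and 87.1 FPKM, were inside the dox+ range. CYC1, the haem subunit of complex III that CYCS docks to, was 52.8, 46.3 and 55.7 FPKM without and 36.2, 34.8, 36.5 and 42.2 FPKM with doxycycline (difference -0.48 ± 0.10, adjusted p = 0.0485). Its parental libraries were at 44.7 and 40.1 FPKM. Of 15 complex I assembly factors 1 fell, NDUFAF2, at 77.1, 71.0 and 79.3 FPKM without and 55.6, 63.0, 54.0 and 46.6 FPKM with doxycycline (difference -0.48 ± 0.10, adjusted p = 0.0436). The parental libraries of NDUFAF2, at 62.8 and 58.9 FPKM, were inside the dox+ range. None was called higher in these 2 lists. Of the 15 complex I assembly factors, 8 were above 0 and 7 below, with a median of 0.07. Of the 8 subunits and carriers, 7 were below 0 and 1 above. None of the 3 calls held throughout: over 8 omissions of 1 library CYCS was called in 2 and CYC1 and NDUFAF2 in 0, with adjusted p up to 0.149, while all 3 differences stayed below 0.

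In the other lists none of the 4 complex II, 5 complex III, 23 complex IV and 3 ATP synthase assembly factors tested was called in this comparison, nor any of the 13 mitochondrially encoded subunits and the 13 regulators of mitochondrial biogenesis. Of the complex IV factors 19 of 23 were below 0 and 6 (26.1%, against 9.22% of all genes) were lower at an unadjusted p under 0.05, with COA7 (-0.50), TACO1 (-0.41) and the copper chaperone COX17 (-0.30) at the smallest p (adjusted p = 0.0567, 0.0567 and 0.0671). Of the mitochondrially encoded mRNAs 11 of 13 were below 0, with a median of -0.20, and 2 (MT-ND2 and MT-ND3, 15.4% of the 13) were lower at an unadjusted p under 0.05. The regulators, which include the factor genes NRF1, GABPA, YY1 and TFAM, had a median of -0.18 with 10 of 13 below 0. At an unadjusted p under 0.05, 3 regulators were lower (23.1%) and 1 was higher. Of the 8 tested genes of the isoform pairs, 0 were called, and of the 9 epithelial markers 0. In S34F dox+ against WT dox+ no gene of any of these lists was called, and all 13 mitochondrially encoded mRNAs were below 0 with a median of -0.08. That sign rests on S34F dox+ replicate 1, which was below both WT dox+ libraries for 13 of 13, whereas replicate 2 was above both for 9 and between them for 4.

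Splicing of the members was read from the deposited comparison of S34F and WT transduced cells, which gives the fraction of transcripts that include an event (PSI), a Bayes factor and reads for each side without replicates, so it has no replicate check. For 75 of the members 461 events were listed. At the thresholds of the study, a Bayes factor of 5 or more and a PSI difference of 0.10 or more, 3 member events were called, against 1.18% of all 87763 events. The median size of the difference was 0.02 over member events, 418 of the 461 had a Bayes factor under 1, and the reads were deep, with a median of 433 on the S34F side and 668 on the WT side, against 223 and 320 for all events. The called events were 1 of 218 skipped exons, 2 of 65 alternative 3′ splice sites, and 0 of 112 alternative 5′ splice sites, 44 sites with tandem acceptors and 22 retained introns.

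The event with the highest Bayes factor was a skipped exon of NDUFS4, an accessory subunit of complex I. The PSI was 0.52 on the S34F side (507 reads) and 0.86 on the WT side (794 reads), with a Bayes factor of 70.0. The event lies on the plus strand of chromosome 5, where the splice junctions run between 52942235 and 52978948 (GRCh37, the build of the study's alignments). The level of the gene was 157 and 179 FPKM in WT dox+ and 165 and 152 FPKM in S34F dox+, which overlap, and the difference was -0.08 (95% interval -0.35 to 0.19, adjusted p = 0.931).

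In NDUFC1, a small accessory subunit of complex I, the called event is a choice of 3′ splice sites at 140217114 and 140217110 on the minus strand of chromosome 4, 4 bases apart, with the other junction end at 140223570. Its PSI was 0.07 on the S34F side (433 reads) and 0.43 on the WT side (611 reads), with a Bayes factor of 6.08. The gene was at 54.8 and 56.6 FPKM in WT dox+ and 60.9 and 47.3 FPKM in S34F dox+. The third event, listed under ATP5J2-PTCD1 on chromosome 7 between 99050063 and 99051664, had a PSI of 0.88 against 0.48 with a Bayes factor of 5.30 on 110 and 119 reads. It is listed on the plus strand, and its gene strand was not settled here, so it may belong to another transcript. Of the 461 events 326 were on the strand of their gene in RefSeq, 27 were on the other strand and 108 could not be matched.

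**Figure D5:**
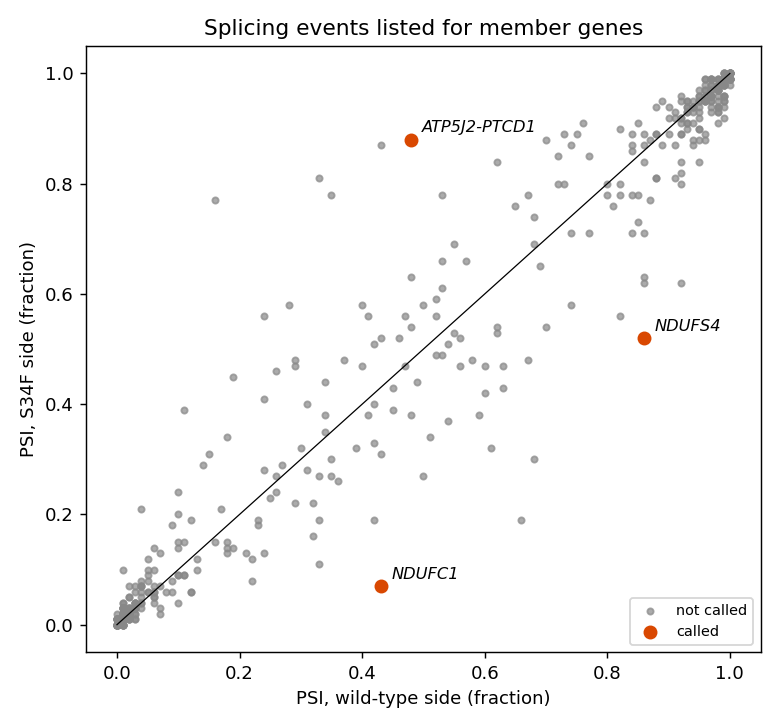
PSI (fraction from 0 to 1) of the 461 splicing events listed for members, with the WT side on the x axis, the S34F side on the y axis and a line where both are equal. The called events of NDUFS4 (0.52 against 0.86) and NDUFC1 (0.07 against 0.43) lie below the line and that of ATP5J2-PTCD1 (0.88 against 0.48) above it.

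Just outside the thresholds was a skipped exon listed for SDHD, with a PSI of 0.10 against 0.01 and a Bayes factor of 19.3, on the minus strand, whereas SDHD is a plus-strand gene. With a Bayes factor of at least 20, and likewise of at least 10, in place of 5, NDUFS4 was the only member event called. With a PSI difference of at least 0.20, or at least 10 reads on each side, the same count of 3 was called. Which side of the table is S34F was taken from the order of the names given to the comparison. As a check, of 88 genes with a 2-fold difference in FPKM between S34F dox+ and WT dox+, 62 had relatively more reads on the side that this order implies.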

How the data were processed

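Total RNA of 9 HCC78 libraries was sequenced by the authors in paired-end reads, which were trimmed to 100 bases, aligned with STAR 2.3.0 and summarised per gene with RSEM 1.2.29. The deposited table holds FPKM and TPM values for each library and no counts, so the study's DESeq2 test was not run, and depth in reads is unknown. For splicing, the authors deposited MISO tables of 5 event types with PSI as a fraction, the PSI difference of the sides as a signed score, a Bayes factor, which is a ratio of the evidence for and against a difference, and counts of reads per side. How replicates were combined for MISO is not stated. The 2 binding samples of the series were not analysed here, and 0 columns of per-sample values were left out. The values of 1 member are not reported here, though it is included in counts and medians.

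The 15179 genes whose mean was 1 FPKM or more were tested with limma 3.58.1 in R 4.3.3 (limma-trend) on log2(FPKM + 1), in 1 fit of the 5 groups without covariates, and p-values were adjusted over all genes tested by the Benjamini-Hochberg method. Fold changes on this scale understate those of low genes. The script was tested on simulated data. Tables were made with Python 3.11.15 and pandas 2.3.3. An event listed with several isoform values was counted once, with its largest Bayes factor.

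The members and lists were chosen with earlier results of these data known. Genes were named by a rule: called members, the highest and lowest of each complex, in each complex up to 2 in each direction without overlap between groups and with a mean of at least 5 FPKM, isoform pairs, members with called events, and from other lists up to 3 by smallest p, beside U2AF1. Others, such as members at an unadjusted p under 0.05 or near the minimum, were named after their values were seen. Promoters came from the RefSeq table of GRCh38.p14, in which 64 of 83 members had an entry. Alternatives covered the pseudocount, the minimum, TPM, median-ratio and quantile scaling, protein-coding genes only, a replicate block, omitted libraries and the thresholds on events. The omission of WT dox+ replicate 2 together with S34F dox+ replicate 2 was chosen after seeing the data.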

Additional observations from a re-analysis of the deposited data

Results flagged for a closer look

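In 8 members dox+ and dox- libraries did not overlap within either line, and the lines moved in opposite directions. The share of all genes tested with this pattern was not counted, so the 8 are not read as a result about the members. The difference of the responses, S34F minus WT on the log2 scale, was tested with limma, and the adjusted p was 1.0 for each. It was -0.29 for NDUFB3, -0.63 for NDUFB6, -0.12 for SDHA, -0.27 for UQCR10, -0.33 for ATP5G1, -0.20 for ATP5L, -0.46 for ATP5O and 0.58 for ATP5J2-PTCD1. In the 7 with a value below 0 the WT line was higher and the S34F line lower with doxycycline, and in ATP5J2-PTCD1, which is near the minimum level, the reverse. The S34F side rests on 1 dox- library. No group has 4 or more libraries, so single libraries were not screened for distance from their group.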

How the results depend on the processing

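SDHB and ATP5D were both called in the mean doxycycline difference with pseudocounts of 0.1 and 0.5, a minimum of 5 FPKM, TPM, protein-coding genes alone and median-ratio scaling. The number of members called lower was 0 in place of 2 with no minimum (adjusted p = 0.0718 for SDHB and 0.0520 for ATP5D), quantile normalization (0.0542 and 0.0876), without the parental libraries (0.0725 and 0.0619) and without WT dox+ replicate 2 and S34F dox+ replicate 2, and ranged from 0 to 2 over the omissions of 1 library. The cause was not tested.

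Replicate numbers did not pair the libraries: correlations of deviations between same-numbered libraries were -0.076 to 0.037. With the replicate block the number of members called lower was 0 (adjusted p = 0.0591 and 0.0574), and over all genes 197 were called higher and 45 lower, against 424 and 165 without it. No other call of the members was changed by the block, and CYCS, CYC1 and NDUFAF2 were not called with it.

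The median member difference for S34F dox+ against WT dox+ was -0.084 with TPM and 0.1119 without WT dox+ replicate 2 and S34F dox+ replicate 2, and ranged from -0.0469 to 0.0949 over omissions of 1 library. The lowest value was without S34F dox+ replicate 1. For WT dox+ against WT dox- it was 0.0142 under quantile normalization and -0.0812 to -0.0124 over omissions of 1 library, for the mean doxycycline difference -0.1555 with median-ratio scaling and -0.0329 under quantile normalization, for the difference of responses -0.2271 with TPM and -0.0074 without those 2 libraries, and for WT dox- against parental 0.0331 with TPM. Over omissions of 1 library these 2 ranged from -0.1334 to -0.0508 and from -0.1089 to -0.014. TPM moved the median of all genes by -0.10 in S34F dox+ against WT dox+ and by -0.14 in the difference of responses, and quantile normalization moved it by -0.12 in the mean doxycycline difference. Over all genes, the calls in the mean doxycycline difference were 363 higher and 279 lower with median-ratio scaling, 294 and 228 with TPM, 149 and 60 under quantile normalization, 70 and 70 with no minimum, 348 and 223 with a minimum of 5 FPKM and 112 and 26 without the parental libraries, and from 6 and 4 to 295 and 52 over omissions of 1 library. CYCS, CYC1 and NDUFAF2 were not called with no minimum, under quantile normalization or without the parental libraries, and CYC1 was not called with TPM. Called member events were 1 in place of 3 at a Bayes factor of at least 20. Without the S34F dox- library the mean doxycycline difference and the difference of responses could not be fitted. The unknown depth and 2 libraries a group limit what small differences can be seen.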
